A study of Mus musculus with 24 samples.

Results

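MLL-AF9 leukaemia cells with floxed Arid2 alleles were compared with MLL-AF9 leukaemia cells with unfloxed Arid2 alleles, in 6 of the 24 RNA-seq libraries of the series, chosen by the genotype in their labels. The 3 floxed libraries were Arid2 fl/fl VavCre+ MLL-AF9 and the 3 control libraries Arid2 +/+ VavCre+ MLL-AF9, so that Cre and the fusion oncogene were present on both sides. VavCre is a Cre recombinase transgene that acts in blood cells from early development, so the floxed cells had passed through blood formation and leukaemia growth under it. The cells came from the bone marrow of mice that had received a second transplant of leukaemia and had become moribund. Ages, strain, sex and any sort for leukaemia cells are not given in the labels, and whether libraries of 1 genotype trace back to different first-generation leukaemias is not stated. Host marrow cells may therefore be among the cells sequenced. The p-values reflect sample-to-sample spread, which may be technical. A second pair of groups, Arid1b fl/fl VavCre+ and Arid1b +/+ VavCre+ MLL-AF9 cells with 3 libraries each, is used below where the Arid2 result is set against its nearest relative.

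ARID2 is a DNA-binding subunit that defines PBAF, a form of the SWI/SNF chromatin remodelling complex that moves and ejects nucleosomes and that also holds PBRM1, BRD7 and PHF10. Its relative ARID1B belongs to the BAF form, and both forms share the ATPase SMARCA4 and a common core. MLL-AF9, a fusion of a histone methyltransferase with an elongation factor partner, drives an acute leukaemia of the myeloid lineage in which HOXA genes and their cofactors stay active and maturation into granulocytes is incomplete.

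The 6 libraries held 28079167 to 38315410 counts, against 12069153 to 38315410 over the series. Of 24046 genes in the count table, 14099 passed the filter on low counts and were tested. Levels are given as CPM (counts divided by library size and scaled between libraries), which are not corrected for gene length and are therefore compared only between libraries. The first principal component of the 6 libraries held 57.6% of their variance and separated the groups, with floxed libraries at -62.9, -81 and -37.9 and control libraries at 67, 74.6 and 40.2. Floxed 3 and control 3 lay closest to each other across the groups, with a median absolute log2 difference over genes of 0.267, and libraries within a group differed by 0.205 to 0.307. Floxed 2 carried Y-linked transcripts (Ddx3y at 132 CPM) and little Xist (8.67 CPM), whereas the other 5 libraries were Y-negative with Xist at 1470 to 3340 CPM. Myeloid genes were read in all 6 libraries, with Mpo, the peroxidase of early granules, at 848, 994 and 6730 CPM in floxed libraries and 2700, 1970 and 4300 CPM in controls. The T cell receptor chain gene Cd3e stayed at or under 1.56 CPM in every library. The summed level of 16 erythroid genes, at 74.4 to 110 CPM in floxed and 146 to 213 CPM in control libraries, was mostly that of the transferrin receptor gene Tfrc.

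Arid2 itself was not lower beyond the spread between libraries. It was read at 290, 281 and 197 CPM in floxed libraries and at 218, 443 and 237 CPM in controls, and the groups overlapped (log2 fold change -0.22, SE 0.41, adjusted p 0.802). Without control 2, the highest library, the log2 fold change turned to 0.174. Which exon is floxed is not given, and a transcript that lacks it still yields reads, so the count tests neither the deletion nor its extent. Of the other PBAF subunits, Brd7 was at 129, 122 and 134 CPM in floxed libraries, against 146, 158 and 151 CPM in control libraries without passing the test (adjusted p 0.276), and Pbrm1 and Phf10 overlapped between the groups. Arid1b was at 238, 221 and 188 CPM in floxed libraries, against 365, 412 and 187 CPM in control libraries (adjusted p 0.507). Among 16 tested genes of the shared core and 7 of the BAF and ncBAF forms, 0 were called by edgeR or by DESeq2, with 0 and 1 at a p under 0.05 before adjustment. The ATPase gene Smarca4 stood at 291, 314 and 285 CPM in floxed against 265, 310 and 300 CPM in control libraries.

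Most of the genes that changed fell, and many of those were all but silent in the floxed leukaemias. By edgeR's quasi-likelihood test with a Benjamini-Hochberg adjusted p under 0.05, referred to below as called, 185 of 14099 genes changed (1.31% of those tested), 35 higher (0.248%) and 150 lower (1.06%). Changes of over 2-fold made up 165 of these. The 150 lower genes had a median level of 1.07 CPM in floxed and 11.9 CPM in control libraries, and 74 of them averaged under 1 CPM in the floxed group. The 35 higher genes had a median of 16.7 CPM in floxed and 5 CPM in control libraries. Every called gene separated the groups without overlap, which by itself was common, since 2520 genes (17.9%) did so upward and 2566 (18.2%) downward. The median log2 fold change over all tested genes was 0.004. Calls were most frequent among genes of 1 to 10 CPM, at 3.04%, and ran from 0.802% to 1.64% in the other level classes.

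**Figure D1:**
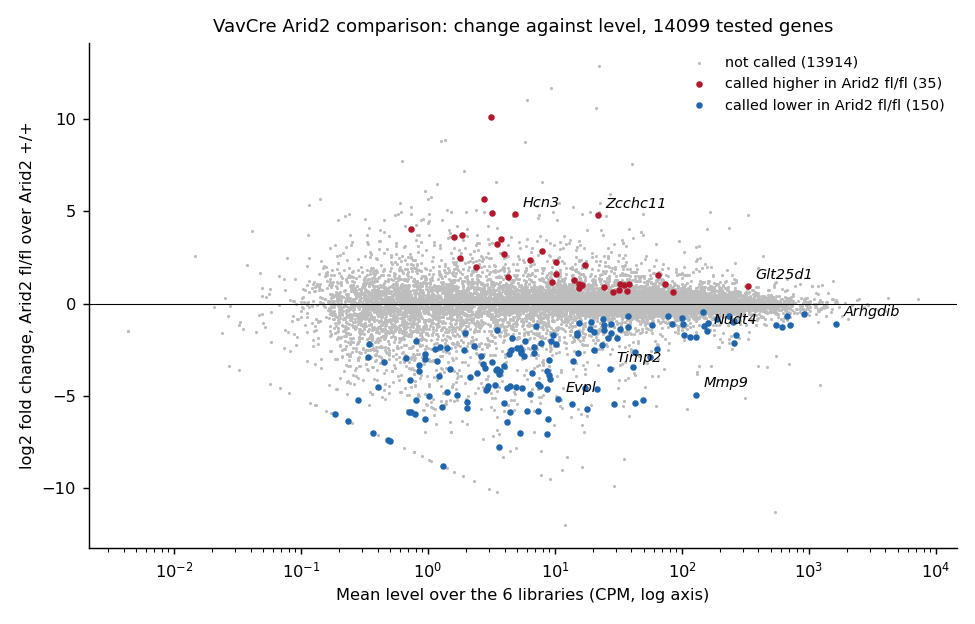
Each point is 1 of 14099 tested genes, placed by its mean level over the 6 libraries (CPM, log axis) and its log2 fold change in Arid2 fl/fl over Arid2 +/+ cells; red and blue points are the 35 genes called higher and the 150 called lower. Of the blue points 69 have a mean of 1 to 10 CPM, and the red point furthest from 0 is a gene with no count in controls, whose plotted value is no measure of its size.

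The number of calls, and the balance of directions, moved with the libraries in the fit and with the method. A fit to the 6 libraries alone called 432 higher and 598 lower, DESeq2 called 373 and 722, and voom with sample quality weights called 2171 and 2508. Of these calls 58.1%, 65.9% and 53.6% were lower, against 81.1% in the fit reported. Without floxed 1 the test called 15 genes, without floxed 2 it called 16, without control 2 it called 27 and without control 1 it called 61. Without floxed 3 it called 227 and without control 3 it called 160. Of the 185 genes, 14, 15, 27 and 61 kept their call without floxed 1, floxed 2, control 2 and control 1, and 122 and 126 without floxed 3 and control 3. With a term for the Y-positive library the number was 104, of which 96 were among the 185.

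**Figure D2:**
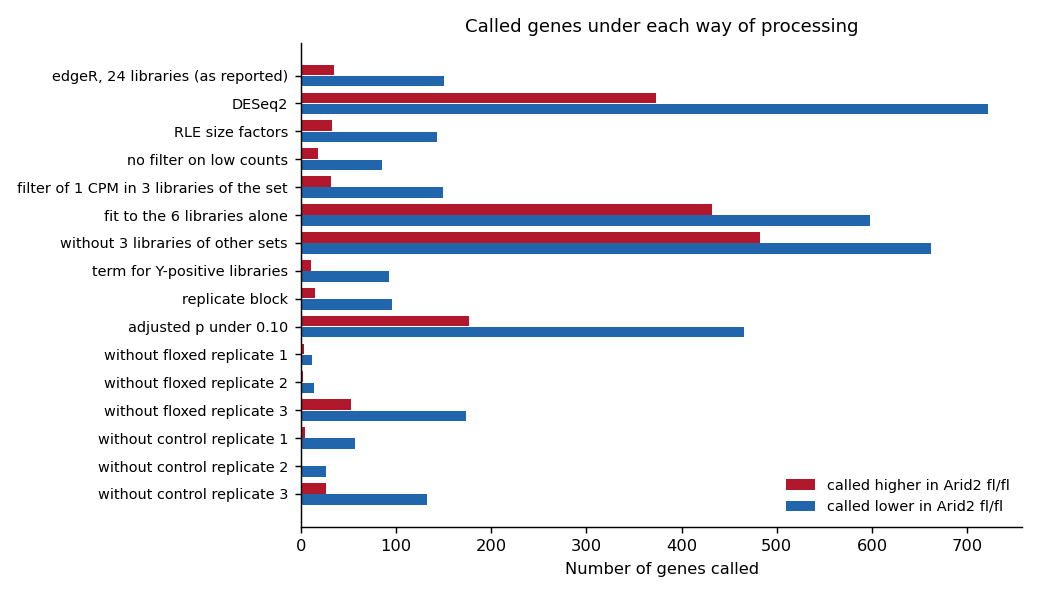
Bars give the number of genes called higher (red) and lower (blue) in Arid2 fl/fl cells under the reported edgeR fit, shown at the top, and under 15 other ways of processing; voom, with 2171 and 2508, is left off the axis. Lower calls outnumber higher calls in every row, and the totals run from 15 without floxed 1 to 1144 without 3 libraries of other sets.

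A core of 8 genes was called under all 16 alternatives, 7 of them lower and 1 higher. Of the 16, the threshold of 0.1 applies to the same fit and keeps every called gene by construction. Nudt4, which encodes a phosphatase of diphosphoinositol signalling molecules and lies on chromosome 10 (95547007 to 95564146, GRCm38), was at 78.2, 68.2 and 99 CPM in floxed libraries and at 246, 235 and 217 CPM in controls. Its log2 fold change was -1.51 with an SE of 0.15 (adjusted p 5.51e-05), the smallest p of the comparison. Timp2, an inhibitor of matrix metalloproteinases on chromosome 11, was at 4.74, 2.33 and 5.62 CPM in floxed libraries, against 41.5, 65 and 42 CPM in control libraries (log2 fold change -3.55, SE 0.45, adjusted p 0.000746). The groups did not overlap for either gene.

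As3mt, which methylates arsenic, fell to 1.2, 0.219 and 0.366 CPM in floxed libraries, against 33, 17.5 and 29.2 CPM in controls (log2 fold change -5.46, SE 0.82, adjusted p 0.00436), and its log2 fold change was -6.48 without floxed 1. Acp5, the tartrate-resistant acid phosphatase of macrophages and osteoclasts, was at 4.87, 3.07 and 4.39 CPM in floxed libraries, against 28.4, 27 and 23.7 CPM in control libraries (adjusted p 0.00222). Sat2, of the diamine acetyltransferase family, was at 0.026, 0.0823 and 0.0305 CPM in floxed libraries, against 3.75, 1.88 and 1.93 CPM in control libraries (adjusted p 0.00195), which is 5 counts over the floxed libraries and 254 over the controls. Maneal, related to an endomannosidase that trims glycans, was the one that rose, at 1.64, 4.11 and 3.2 CPM in floxed libraries and 0.235, 0.213 and 0.272 CPM in controls (log2 fold change 3.61, SE 0.51, adjusted p 0.00222). The remaining pair, Evpl and the long non-coding RNA gene 5031425F14Rik, also differed from the Arid1b comparison and are described there.

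The promoter windows of 5 of these genes are shown because the CpG content of called genes is described further on. Each runs from 250 bases before the annotated start to 50 after it, read 5′ to 3′ on the gene's strand from the RefSeq annotation of GRCm38.p6, with CpG dinucleotides in capitals. Those of As3mt (chr19:46707208-46707507, plus strand) and Sat2 (chr11:69621802-69622101, plus strand) hold 9 and 10 CpG sites. Those of Timp2 (chr11:118355362-118355661, minus strand) and Maneal (chr4:124862122-124862421, minus strand) hold 25 and 45. That of Nudt4 (chr10:95564097-95564396, minus strand) holds 39.
As3mt: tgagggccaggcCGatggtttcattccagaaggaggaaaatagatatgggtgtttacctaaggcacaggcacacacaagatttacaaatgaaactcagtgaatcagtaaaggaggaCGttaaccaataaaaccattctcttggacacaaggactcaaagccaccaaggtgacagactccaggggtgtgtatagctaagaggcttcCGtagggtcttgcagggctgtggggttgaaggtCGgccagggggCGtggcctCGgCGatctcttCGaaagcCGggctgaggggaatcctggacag
Sat2: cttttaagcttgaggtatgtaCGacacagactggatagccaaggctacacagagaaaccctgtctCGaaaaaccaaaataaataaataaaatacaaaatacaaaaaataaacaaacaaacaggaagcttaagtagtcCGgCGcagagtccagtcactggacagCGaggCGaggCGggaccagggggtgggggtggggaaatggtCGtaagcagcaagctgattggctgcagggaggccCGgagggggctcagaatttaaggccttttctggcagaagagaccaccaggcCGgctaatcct
Timp2: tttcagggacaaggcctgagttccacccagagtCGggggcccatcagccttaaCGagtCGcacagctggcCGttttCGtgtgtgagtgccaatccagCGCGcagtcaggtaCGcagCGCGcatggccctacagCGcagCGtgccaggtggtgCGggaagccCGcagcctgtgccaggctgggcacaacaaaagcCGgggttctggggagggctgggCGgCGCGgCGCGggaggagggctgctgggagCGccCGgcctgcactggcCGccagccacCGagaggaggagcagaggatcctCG
Nudt4: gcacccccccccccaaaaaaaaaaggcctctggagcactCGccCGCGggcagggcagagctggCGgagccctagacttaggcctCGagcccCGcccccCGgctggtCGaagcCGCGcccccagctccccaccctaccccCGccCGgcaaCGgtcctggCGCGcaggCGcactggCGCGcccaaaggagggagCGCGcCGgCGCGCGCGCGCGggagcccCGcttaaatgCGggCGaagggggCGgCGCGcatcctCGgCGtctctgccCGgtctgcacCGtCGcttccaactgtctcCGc
Maneal: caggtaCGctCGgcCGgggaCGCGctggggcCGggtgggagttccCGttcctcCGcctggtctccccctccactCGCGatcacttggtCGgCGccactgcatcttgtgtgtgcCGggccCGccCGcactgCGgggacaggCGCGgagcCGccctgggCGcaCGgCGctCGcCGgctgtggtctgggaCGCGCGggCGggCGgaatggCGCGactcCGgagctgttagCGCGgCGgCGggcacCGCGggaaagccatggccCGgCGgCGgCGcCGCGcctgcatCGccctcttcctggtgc

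The 10 genes of highest CPM that fell included regulators of actin, granule proteins and the oxidase genes Rac2 and Ncf4. The list of Toll-like receptors and phagocyte oxidase genes to which these 2 belong had 12 of 21 members above 0, no others called and a median of 0.04. Arhgdib, which holds small GTPases of the cytoskeleton inactive in blood cells, was at 987, 864 and 1300 CPM in floxed libraries and 2350, 2510 and 1860 CPM in controls (log2 fold change -1.09, SE 0.21, adjusted p 0.018). Rac2, a small GTPase of blood cells that also belongs to the oxidase, was at 719, 661 and 828 CPM in floxed libraries, against 1150, 1140 and 1020 CPM in control libraries (log2 fold change -0.58, SE 0.13, adjusted p 0.0383). Dstn, which depolymerises actin filaments, was at 339, 260 and 491 CPM in floxed libraries and 826, 1050 and 738 CPM in controls (adjusted p 0.0405). The highest floxed library lay below the lowest control library for each of them, as the naming rule required. Floxed 3 was the floxed library nearest to the controls.

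Srgn, the proteoglycan core protein that packs granules, was at 350, 337 and 609 CPM in floxed libraries, against 1100, 994 and 864 CPM in control libraries (log2 fold change -1.19, SE 0.27, adjusted p 0.0356). Cd63, a tetraspanin of lysosomes and granules, was at 148, 85 and 141 CPM in floxed libraries, against 449, 463 and 308 CPM in control libraries (log2 fold change -1.71, SE 0.32, adjusted p 0.015). Ap3s1, a subunit of the adaptor that sorts cargo to lysosome-related organelles, averaged 177 ± 15.1 CPM in floxed and 338 ± 50.6 CPM in control libraries (SD, n = 3 each; edgeR adjusted p 0.0478). Ncf4, the p40phox subunit of the oxidase, averaged 169 ± 34.8 CPM in floxed and 333 ± 42.1 CPM in control libraries (SD, n = 3 each; edgeR adjusted p 0.015). Of the oxidase genes on the same list, Cyba stood at 287, 237 and 421 CPM in floxed libraries, against 522, 548 and 507 CPM in control libraries without passing (adjusted p 0.0878). Cybb, at 437, 396 and 1390 CPM in floxed libraries, against 154, 190 and 669 CPM in controls, overlapped between the groups (adjusted p 0.474).

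The other 3 of the 10 were Ppp1cb, a catalytic subunit of protein phosphatase 1, Tmbim6, an inhibitor of cell death in the endoplasmic reticulum, and Sgip1, an endocytosis regulator. Sgip1 changed most among them, with 62.1, 85.9 and 143 CPM in floxed libraries and 491, 349 and 424 CPM in controls (log2 fold change -2.12, SE 0.50, adjusted p 0.0425). All 10 calls of this group were lost without floxed 1 (adjusted p 0.054 to 0.19), without floxed 2 (0.0986 to 0.219) and without control 2 (0.0617 to 0.155). Of the 10, 8 were lost without control 1, 3 without control 3 and 2 without floxed 3. In bulk RNA, fewer cells of a type and less RNA per cell cannot be told apart for any of these genes.

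The steepest falls, among genes with at least 5 CPM on average in controls, left few reads in the floxed libraries. Mlph, a linker between melanosomes and myosin, was at 0.026, 0.219 and 0.122 CPM in floxed libraries, against 20.9, 28.6 and 1.97 CPM in control libraries (log2 fold change -7.07, SE 1.21, adjusted p 0.0111). Oas1g, an interferon-induced oligoadenylate synthetase gene, was at 0.0781, 0.0274 and 0.122 CPM in floxed libraries, against 10.2, 17.2 and 4.18 CPM in control libraries (log2 fold change -7.03, SE 1.48, adjusted p 0.0255). Ehhadh, an enzyme of peroxisomal fat oxidation, was at 0.13, 0.0823 and 0.214 CPM in floxed libraries, against 6, 11.3 and 8.93 CPM in control libraries (log2 fold change -5.90, SE 1.05, adjusted p 0.0135). Control 3 was the lowest control for Mlph and Oas1g, and lay above every floxed library, as the naming rule required.

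Ndrg2, a stress-responsive differentiation gene, Bai1, a receptor for dying cells, and Gal, a neuropeptide gene, also fell (adjusted p 0.0454, 0.0295 and 0.0161). Bai1 had 0.26, 0.274 and 1.46 CPM in floxed libraries and 31.5, 35.9 and 38.6 CPM in controls, and its log2 fold change of -5.74 became -7.01 without floxed 3. Paqr8, which encodes a progestin receptor in membranes, gave 3 counts in all in floxed and 699 in control libraries. Its scaled ratio of control to floxed counts was 261, with a 95% exact counting interval of 89 to 1270 that covers counting error only. Floxed 2 held 2 of the 3 counts, and the fitted log2 fold change, which is no bound at such counts, was -7.77 with all libraries and -8.52 without floxed 2. Of the 8 genes with the largest falls, 7 lost the call without floxed 1 and 7 without floxed 2 (adjusted p 0.0593 to 0.184 and 0.0543 to 0.202), As3mt being the exception. Without control 1, control 2, control 3 and floxed 3, 3, 4, 1 and 2 of them lost it. Mlph moved to a log2 fold change of -7.77 without floxed 2 and -6.48 without control 2 and Gal to -7.40 without floxed 1.

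In 13 called genes, all lower, the floxed libraries held 3 counts or fewer in total. In 6 of them there was no count. A floor of 3 counts over the floxed group puts Tslp, an epithelial cytokine gene, at least 36.6-fold lower, the cyclin gene Ccna1 at least 35.1-fold lower and Lefty1, an antagonist of the Nodal pathway, at least 24.3-fold lower. The call of Tslp was lost without each of the 6 libraries (edgeR adjusted p 0.065 to 0.199). That of Ccna1 held only without control 3 (0.0426). That of Lefty1 was lost without floxed 1 (0.101), floxed 2 (0.112) and control 2 (0.0813). Cxx1a, Cxx1b and Cxx1c are near-identical copies on the X chromosome, and Spatc1 with Gm10872 and Smpd5 with Oplah overlap on chromosome 15. Reads of such genes may be shared or split between them, which was not measured, so their values are uncertain.

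Several called genes outside the naming rule, chosen after their values were seen, belong to blood cell regulation or to the extracellular matrix. Ets1, a transcription factor of lymphoid and other blood cells, was at 8.7, 6.47 and 24.1 CPM in floxed libraries, against 91.6, 129 and 77.5 CPM in control libraries (log2 fold change -2.92, adjusted p 0.0161). Alox5, which makes leukotrienes, was at 18.3, 12.5 and 27.6 CPM in floxed libraries, against 61.8, 101 and 159 CPM in control libraries (adjusted p 0.0383). The collagen genes Col6a3 and Col5a3 fell (adjusted p 0.0213 and 0.045), Col5a3 to 1.77, 1.56 and 4.42 CPM in floxed libraries against 75.9, 113 and 101 CPM in controls. These calls were lost without floxed 1 for all 4 genes (adjusted p 0.1 to 0.189), without floxed 2 for Ets1, Alox5 and Col5a3 (0.0999 to 0.202) and without control 2 for all 4 (0.0739 to 0.12). Col5a3 was also lost without each remaining library (0.0623 to 0.0885), Alox5 without control 3 (0.0857) and Col6a3 without control 1 (0.052). Col6a3 reached a log2 fold change of -7.66 without floxed 2, Ets1 -3.71 and Col5a3 -5.84 without floxed 3.

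The 10 genes of highest CPM that rose had log2 fold changes of 0.62 to 1.55. Glt25d1, a galactosyltransferase that modifies collagen, was at 451, 468 and 396 CPM in floxed libraries and 226, 234 and 219 CPM in controls (log2 fold change 0.95, SE 0.21, adjusted p 0.0349). Wdfy1, an endosomal adaptor of Toll-like receptor signalling, was at 86, 99.2 and 107 CPM in floxed libraries, against 22.2, 24.5 and 53 CPM in control libraries (log2 fold change 1.55, SE 0.35, adjusted p 0.0394). Ano8, a membrane tether of the anoctamin family, was at 45.1, 48.5 and 38.8 CPM in floxed libraries, against 21.7, 20.5 and 20.2 CPM in control libraries (log2 fold change 1.08, SE 0.20, adjusted p 0.015). Control 3 was the highest control for Wdfy1 and lay below each floxed library, as the naming rule required.

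Sufu, which restrains Hedgehog signalling, averaged 39.9 ± 5 CPM in floxed and 24.1 ± 0.904 CPM in control libraries (SD, n = 3 each; edgeR adjusted p 0.0422). Nprl3, of the GATOR1 complex that restrains mTORC1, averaged 34.9 ± 2.49 CPM in floxed and 22.7 ± 2.71 CPM in control libraries (SD, n = 3 each; edgeR adjusted p 0.04). The Integrator subunit gene Ints4, the chromatin gene Rai1 with its neighbour Tom1l2 on chromosome 11, the zinc finger gene Zmym6 and the kinesin adaptor gene Kifap3 also rose, by log2 0.62 to 1.06 (edgeR adjusted p 0.0181 to 0.0417). Without floxed 1, floxed 2 or control 2 all 10 of these calls were lost (adjusted p 0.054 to 0.175, 0.0898 to 0.192 and 0.0752 to 0.171). Of the 10, 8 were lost without control 1, 4 without control 3 and 2 without floxed 3.

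The 8 genes with the largest rises, among those with at least 5 CPM on average in floxed libraries and 1 CPM or more in each, had little or no signal in controls. Zcchc11, which adds uridines to microRNA precursors and other RNAs, was at 49.9, 51.3 and 25.1 CPM in floxed libraries and 1.85, 1.52 and 1.15 CPM in controls (log2 fold change 4.79, SE 1.14, adjusted p 0.0467). Hcn3, a pacemaker channel gene, was at 8.2, 11.4 and 8.42 CPM in floxed libraries, against 0.261, 0.319 and 0.373 CPM in control libraries (log2 fold change 4.86, SE 0.89, adjusted p 0.015). Rcor2, of the CoREST family of corepressors that work with a histone demethylase, was at 4.51, 12.6 and 1.74 CPM in floxed libraries, against 0.886, 0.532 and 0.577 CPM in control libraries (log2 fold change 3.22, SE 0.72, adjusted p 0.0356). Floxed 2 was the highest library for Hcn3 and Rcor2, and without it the log2 fold change of Rcor2 was 2.23.

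Eif5a2, a translation factor, Ankrd37, a gene induced by low oxygen, Cntnap1, Ccdc62 and Ric3 completed the 8 genes with the largest rises (edgeR adjusted p 0.0213 to 0.0497). None of the 8 kept its call without floxed 1 (adjusted p 0.0537 to 0.134), floxed 2 (0.0625 to 0.232), control 1 (0.0614 to 0.15) or control 2 (0.0596 to 0.182). Hcn3 alone kept it without control 3, and Ccdc62 alone lost it without floxed 3. Ric3 had a log2 fold change of 5.67 with all libraries, 7.20 without control 2 and 5.05 without control 1, while that of Eif5a2 moved to 3.46 without control 2 and that of Ccdc62 to 2.02 without floxed 3. Msi2, an RNA-binding protein of stem and leukaemia cells that was picked out after its values were seen, was at 32.9, 34.1 and 16.9 CPM in floxed libraries, against 4.25, 7.87 and 7.5 CPM in control libraries (log2 fold change 2.10, adjusted p 0.0295). The call held without floxed 3 and was lost without any of the other libraries (0.057 to 0.135).

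**Figure D3:**
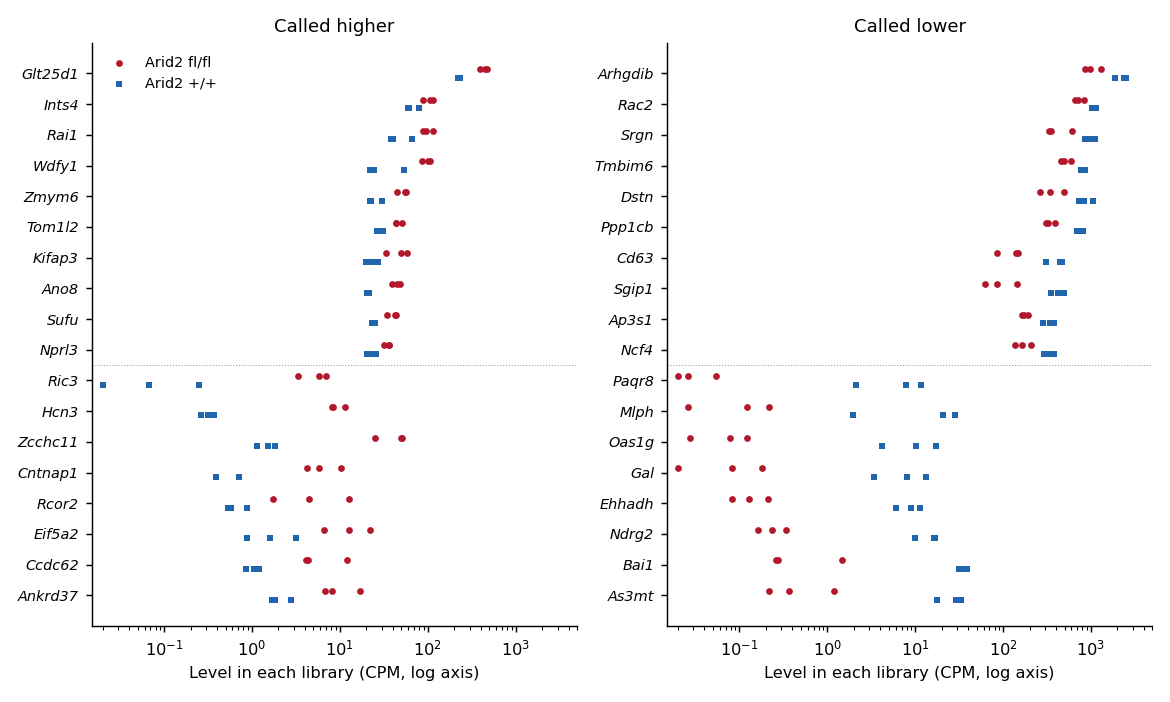
Levels in each library (CPM, log axis) of the genes chosen by rule, those called higher on the left and those called lower on the right, with Arid2 fl/fl libraries as red circles drawn above the blue squares of Arid2 +/+ libraries. The 10 genes of highest CPM stand above the dotted line in each panel and the 8 of largest change below it; values under 0.02 CPM, zeros included, are drawn at 0.02. The groups do not overlap for any gene shown, a property that the rule required.

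Zinc finger genes with the prefix Zfp leaned upward as a family, which was examined after their values were seen. Of 315 tested, 224 (71.1%) had a log2 fold change above 0, against 50.5% of all tested genes, and their median was 0.20, against 0.004. Floxed libraries lay above every control library for 99 of them (31.4%) and below for 28 (8.89%), where the shares over all genes were 17.9% and 18.2%. The test called 4 higher (Zfp184, Zfp113, Zfp12 and Zfp316) and 2 lower (Zfp551 and Zfp819), or 1.27% and 0.635% of the family against 0.248% and 1.06% of all genes. Zfp184 was at 13.3, 15.2 and 16.8 CPM in floxed libraries, against 5.81, 3.86 and 5.33 CPM in control libraries (log2 fold change 1.59, adjusted p 0.0128), and Zfp12 and Zfp316 lie 861 bases apart on chromosome 5. The family median stayed between 0.16 and 0.24 under every alternative, RLE scaling included. The number called higher fell to 1 or 0 without floxed 1, floxed 2, control 1, control 2 or control 3. Without control 3, 1 Zfp gene was called higher and 4 lower. Genes with the prefixes Slc, Col and Cyp were examined in the same way, with medians of -0.004, -0.60 and 0.11. Of 31 Col genes 19.4% lay above 0 and 35.5% separated the groups downward. The Spearman correlation of log2 fold change with exon length was 0.091 across 13440 genes, which are not independent replicates. Median exon length was 6525 bases for genes called higher, 3220 for genes called lower and 4202.5 for all. Within libraries, deviations from the gene mean correlated with length at 0.057, 0.08 and 0.063 in floxed 1, 2 and 3. In controls 1, 2 and 3 the values were -0.178, -0.054 and 0.066. The part of length in the result was not tested.

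Few genes of granulocyte maturation passed the threshold, although most of those listed had a log2 fold change below 0. Over the 33 gene lists used here, 14 of 761 distinct tested genes were called (1.84%, against 1.31% of all genes), 2 higher and 12 lower, and the lists were written with earlier results of these data known. Mmp9, the gelatinase of tertiary granules, was at 12.2, 2.5 and 9.64 CPM in floxed libraries and 91.5, 212 and 447 CPM in controls (log2 fold change -4.94, SE 0.98, adjusted p 0.0192). It was the 1 called of 20 secondary and tertiary granule genes, of which 15 had a log2 fold change below 0 and 8 separated the groups downward, with a list median of -1.03. Over all tested genes 50.5% lay above 0, 18.2% separated the groups downward and 17.9% upward. Before adjustment 2753 of 14099 genes had an edgeR p under 0.05. DESeq2 called 1095 of the 14099, and the fit to the 6 libraries alone called 1030 of 13559. The counts in this list and in those below stand against these values. DESeq2 called 6 of the 20 lower, the fit to the 6 libraries alone 4, and 8 had a p under 0.05 before adjustment. The call of Mmp9 was lost without floxed 1 (0.0854), floxed 2 (0.114) and control 2 (0.0617), and its log2 fold change was -4.22 without control 3.

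Camp, the cathelicidin precursor of secondary granules, was at 83.6, 11.4 and 144 CPM in floxed libraries, against 681, 708 and 1170 CPM in control libraries, with no overlap and an adjusted p of 0.157. Of 24 granulocyte regulators and receptors, 20 lay below 0 and 14 separated the groups downward (18.2% of all genes did), with a median of -1.61 and 0 called by edgeR (p under 0.05 before adjustment for 12 of them, DESeq2 called 9). Gfi1, a repressor needed for neutrophil formation, was at 67.3, 55.8 and 128 CPM in floxed libraries, against 298, 334 and 322 CPM in control libraries (adjusted p 0.119). S100a8, of the calprotectin pair, was at 149, 23.2 and 223 CPM in floxed libraries, against 615, 608 and 1660 CPM in control libraries (adjusted p 0.161). Cebpa, the regulator of commitment to the lineage, was at 161, 214 and 181 CPM in floxed libraries, against 198, 192 and 177 CPM in control libraries (adjusted p 0.958). Csf3r, the receptor for granulocyte colony-stimulating factor, overlapped as well (0.84). Floxed 2, the Y-positive library, was the lowest library for Mmp9, Camp and S100a8, and without it the medians of these lists were -0.74 and -1.13 for the granule genes and the regulators.

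Of 8 primary granule genes Srgn was the 1 called, and the list median was -0.53, or -1.43 without floxed 3. Elane, neutrophil elastase, was at 801, 639 and 2890 CPM in floxed libraries, against 2530, 2450 and 2850 CPM in control libraries (adjusted p 0.529), with floxed 3 above all controls. Of 36 monocyte and macrophage genes, 19 lay above 0 and 0 were called by edgeR (2 by DESeq2, 4 at a p under 0.05 before adjustment). Their median was 0.15 with all libraries, but -0.71 without floxed 3 and 0.69 without control 3. Ly86, a partner of the Toll-like protein CD180, was at 191, 233 and 201 CPM in floxed libraries, against 71, 39.5 and 74.4 CPM in control libraries (adjusted p 0.272). Axl, a receptor for dying cells, was at 1.22, 1.89 and 3.42 CPM in floxed libraries, against 17.5, 47.8 and 11.7 CPM in control libraries (0.106).

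Among HOXA genes and their cofactors, some separated the groups and others overlapped. Hoxa9, a main effector of MLL fusions, was at 20.1, 91.6 and 80.5 CPM in floxed libraries, against 365, 341 and 280 CPM in control libraries (log2 fold change -2.36, SE 0.59, adjusted p 0.0534). Hoxa10 was at 0.391, 18.8 and 14.2 CPM in floxed libraries, against 152, 152 and 94.6 CPM in control libraries (edgeR adjusted p 0.0507). Hoxa3 was at 4.71, 8.45 and 7.32 CPM in floxed libraries, against 22.8, 34.1 and 22.7 CPM in control libraries (0.0643). Hoxa7, which lies in the same cluster, was at 42, 35 and 33.6 CPM in floxed libraries, against 47.4, 33.7 and 34.9 CPM in control libraries (0.913). The cofactor gene Meis1 was at 120, 94.3 and 85.5 CPM in floxed libraries, against 101, 125 and 85.4 CPM in control libraries (0.953). Pbx3, another HOX cofactor gene, stood on the other side, at 251, 205 and 207 CPM in floxed libraries, against 33.3, 73.9 and 18.2 CPM in control libraries (log2 fold change 2.40, SE 0.69, adjusted p 0.0812). None of these genes passed the test, and 0 of the 28 MLL-fusion targets and HOX cofactors were called. Of the 28, 7 separated the groups upward and 11 downward, against 17.9% and 18.2% of all genes, and the median was -0.07. Before adjustment 11 of the 28 had a p under 0.05, DESeq2 called 1 higher and 7 lower, and the fit to the 6 libraries alone 1 higher and 5 lower.

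Most stem and early progenitor genes had a log2 fold change above 0, again without a call by edgeR (DESeq2 called 3 higher and 1 lower, and 6 had a p under 0.05 before adjustment). Cd34, a surface protein of progenitors, was at 520, 658 and 150 CPM in floxed libraries, against 1.88, 6.98 and 69.1 CPM in control libraries (log2 fold change 4.09, SE 1.69, adjusted p 0.193). Gata2, a transcription factor of stem and mast cells, was at 119, 139 and 26.6 CPM in floxed libraries, against 0.209, 2.02 and 7.57 CPM in control libraries (adjusted p 0.145). Floxed 3 and control 3 were the nearest to each other for both genes. Flt3 was at 730, 1070 and 121 CPM in floxed libraries, against 14.4, 36.7 and 17.5 CPM in control libraries (edgeR adjusted p 0.105). Of 22 such genes 14 lay above 0, 8 were separated upward and 2 downward, against 17.9% and 18.2% of all genes, and the median was 0.50. Kit, the stem cell factor receptor, overlapped, at 53.3, 60.6 and 146 CPM in floxed libraries, against 83.2, 95.3 and 71.6 CPM in control libraries (0.962). Cpa3, a protease gene of mast cells and early progenitors, was at 98.7, 122 and 20.6 CPM in floxed libraries, against 0.13, 0.213 and 0.951 CPM in control libraries (0.102), whereas the basophil protease gene Mcpt8 overlapped (0.808).

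Among lymphoid genes, Cd79b, the signalling chain of the B cell receptor, was called, at 5.05, 2.52 and 0.885 CPM in floxed libraries, against 27.5, 20.7 and 26.7 CPM in control libraries (log2 fold change -3.14, SE 0.76, adjusted p 0.0478). The call was lost without each of the 6 libraries (adjusted p 0.0714 to 0.202), and the log2 fold change was -3.86 without floxed 1. Of 20 tested B lineage genes 17 lay below 0 and 10 were separated downward, against 18.2% of all genes, with a median of -1.52. Most of them were near the floor: a filter of 1 CPM in 3 libraries of the set kept 6, whose median was -0.31. The summed level of this list was 55.4, 87.5 and 17.3 CPM in floxed libraries, against 67.3, 56.2 and 59.5 CPM in control libraries, and in floxed 1 and 2 most of it came from Il7r (37.1 and 62.6 CPM). The summed level of 22 T and NK cell genes was 65.7 to 118 CPM in floxed and 42.5 to 54.3 CPM in control libraries, with 0 called by edgeR, 1 by DESeq2 and 1 at a p under 0.05 before adjustment. The median of that list was 0.29 with all libraries, but -0.915 without floxed 3. The part of admixed lymphoid cells in these results was not tested.

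Cytokine and death receptor genes gave 2 further calls. Il2rg, the common gamma chain of interleukin receptors, was at 7.55, 7.84 and 5.55 CPM in floxed libraries, against 21.1, 20.7 and 26.5 CPM in control libraries (log2 fold change -1.71, SE 0.41, adjusted p 0.0473). The call was lost without any 1 of the 6 libraries (0.0894 to 0.171). Il2rg was the 1 called of 27 cytokine receptor and JAK-STAT feedback genes, which leaned the other way. Of the 27, 19 lay above 0, and the median was 0.20. In this list 9 genes separated the groups upward and 4 downward, against 17.9% and 18.2% of all genes. Fas, the death receptor and p53 target, was at 0.339, 0.137 and 1.56 CPM in floxed libraries, against 16.2, 10.6 and 15.1 CPM in control libraries (log2 fold change -4.36, SE 0.81, adjusted p 0.015). The call was lost without floxed 1 (0.0954) and floxed 2 (0.0892), and the value was -5.83 without floxed 3. Fas was the 1 called among 26 p53 targets, whose median was -0.08, and among 27 apoptosis regulators, whose median was 0.05.

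Most proliferation genes lay slightly below 0. Of 45 cell cycle genes 38 had a log2 fold change below 0 and 22 were separated downward and 1 upward, against 18.2% and 17.9% of all genes. Their median was -0.29 and 0 were called by edgeR. Tyms, thymidylate synthase, was at 40.3, 38.4 and 37.4 CPM in floxed libraries, against 84.8, 79.7 and 70.1 CPM in control libraries (log2 fold change -1.01, SE 0.28, adjusted p 0.0728). Plk1, a mitotic kinase, was at 71.9, 75.2 and 69 CPM in floxed libraries, against 112, 130 and 106 CPM in control libraries (0.126). The cyclin genes Ccnd1 and Ccnd2 were among the 7 above 0, Ccnd1 being at 87.1, 207 and 36.7 CPM in floxed libraries, against 5.08, 5.1 and 80.3 CPM in control libraries (0.276). The fit to the 6 libraries alone called 10 of the list lower and 1 higher, DESeq2 called 1 lower, and 10 had a p under 0.05 before adjustment.

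Of 47 interferon-stimulated genes, Oas1g was the 1 called, 28 lay below 0 and the median was -0.46. DESeq2 called 6 of them lower, and 11 had a p under 0.05 before adjustment. The sensor gene Ddx58 was at 5.65, 1.26 and 11.4 CPM in floxed libraries, against 24.4, 42.9 and 18.4 CPM in control libraries (adjusted p 0.115). Tap1, a peptide transporter gene, was at 202, 289 and 155 CPM in floxed libraries, against 146, 110 and 89 CPM in control libraries (0.239), so the list held genes on both sides. Metabolic and stress lists held single calls. Ldhb, a lactate dehydrogenase subunit, was at 0.156, 0.11 and 0.61 CPM in floxed libraries, against 1.98, 1.21 and 16 CPM in control libraries (adjusted p 0.0467). Its log2 fold change of -4.44 became -2.44 without control 3 and -5.52 without floxed 3, and it was called only without floxed 3 among the 6 omissions. Chac1, which degrades glutathione under amino acid stress, was at 0.156, 0.11 and 0.427 CPM in floxed libraries, against 2.01, 2.73 and 3.53 CPM in control libraries (log2 fold change -3.55, adjusted p 0.0225). The call was lost without floxed 1 (0.134), floxed 2 (0.146) and control 2 (0.0752), and the value was -4.31 without floxed 3. Rcor2 was the 1 called of 40 Polycomb, DNA methylation and demethylase genes (median 0.15), and Ankrd37 and Ldhb were the 2 of 32 glycolysis and hypoxia genes (median -0.05). Ehhadh was the 1 of 32 fat oxidation genes (median -0.05) and Cd63 the 1 of 15 mast cell and basophil genes (median -0.49, but -1.72 without floxed 3, 0.208 without control 3 and 0.036 without floxed 1). The other 10 lists, which covered erythroid, megakaryocyte, stromal, MHC class II, inflammatory, immediate-early, adhesion, MYC, oxidative phosphorylation and lipid synthesis genes, had 0 called members by edgeR among 235 genes and medians between -0.43 and 0.29. Of these medians the erythroid one was -0.77 without floxed 2 and 1.47 with the term for Y-positive libraries, that of MHC class II genes -0.49 without floxed 3 and that of stromal genes -0.79 without floxed 3. DESeq2 made 11 calls in them, and 43 genes had a p under 0.05 before adjustment. Over all 14099 genes DESeq2 called 1095, and 2753 had such a p in edgeR.

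**Figure D4:**
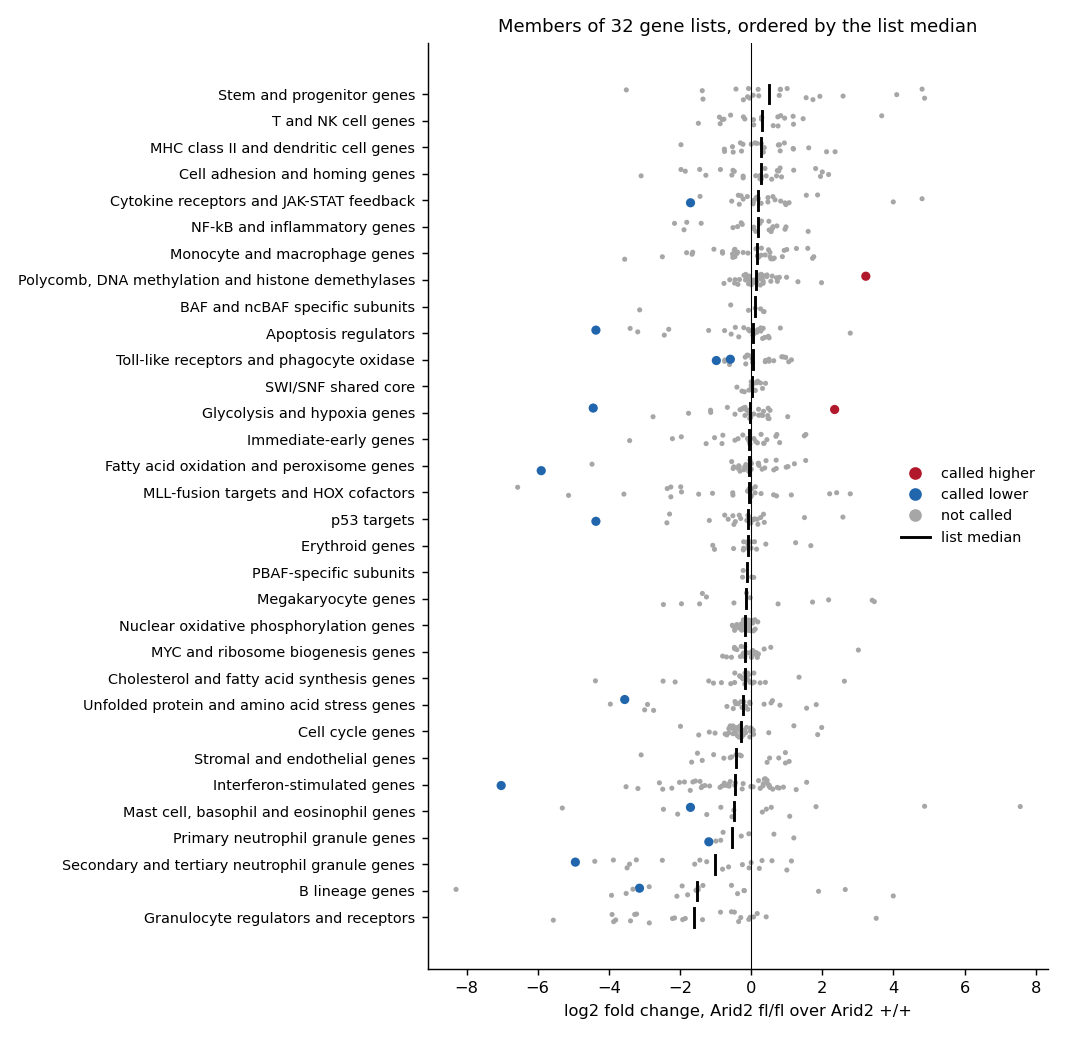
Log2 fold change in Arid2 fl/fl over Arid2 +/+ cells of each tested member of 32 gene lists (points; vertical jitter has no meaning), with the list median as a black bar; sex-linked genes are left out. Called members are large and coloured, 2 red for higher and the rest blue for lower. The stem and progenitor list has the highest median, 0.50, and the granulocyte regulators the lowest, -1.61.

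Promoters with few CpG sites were more frequent among genes that fell, in the higher of the level classes examined. Promoter windows were found for 10347 tested genes, 26 called higher and 100 called lower. The median number of CpG sites in the 300-base window was 24.5 for genes called higher, 14 for genes called lower and 20 for all. Of the lower genes 42% had 10 or fewer, against 7.69% of the higher genes and 23.9% of all. Among genes averaging 10 CPM or more, 47.2% of 36 lower genes had 10 or fewer sites, against 15.1% of 7260 genes. Among genes of 1 to 10 CPM the shares were 40% of 50 lower genes and 39.2% of 1923 genes. These are descriptions without a test, and where a gene has several starts the first listed was used. Letters of 5 factor motifs were counted on both strands. AP-1 (TGANTCA) was present in 7.69% of higher, 8% of lower and 5.41% of all windows. C/EBP (TTNNGCAA) was present in 0%, 11% and 8.52%, ETS (GGAAGT) in 26.9%, 25% and 29.2%, RUNX (TGTGGT) in 19.2%, 8% and 13.1%, and the E-box CACGTG in 19.2%, 9% and 9.94%.

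The Arid2 changes were set against the VavCre Arid1b comparison, which has its own controls. In that set 926 genes were called (6.57%). Of the 185 genes, 44 were called in both, 36 lower and 7 higher in both and 1 in opposite directions. These are 23.8% of the Arid2 calls and 4.75% of the Arid1b calls, and 151 of the 185 had the same sign. The share with the same sign over all tested genes was not counted. Both contrasts also used the same estimate of spread for each gene, so these counts are descriptions and no test of agreement. All 3 controls of the Arid1b set were Y-positive and its floxed libraries Y-negative, so sex and genotype cannot be told apart there. The difference between the contrasts was called for 2 genes of 14099 (0.0142%), with 1389 at an unadjusted p under 0.05; DESeq2 called 252 and voom 2484.

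Genes called in both sets included Cd63, whose log2 fold change was -1.71 in the Arid2 set. It averaged 61 ± 13.9 CPM in Arid1b fl/fl and 392 ± 69.9 CPM in Arid1b +/+ cells (SD, n = 3 each; log2 fold change -2.69, edgeR adjusted p 0.00177). Dstn changed by -1.26 in the Arid2 set and -1.26 in the Arid1b set, and Ap3s1 by -0.93 in the Arid2 set and -0.94 in the Arid1b set (edgeR adjusted p of the difference 1 and 0.997). Slc7a8, an amino acid transporter gene named after its values were seen, was at 4.38, 2.77 and 3.85 CPM in Arid2 fl/fl and 13.1, 20.6 and 16.2 CPM in Arid2 +/+ cells (adjusted p 0.0104). In the Arid1b set it averaged 4.78 ± 1.61 CPM in Arid1b fl/fl and 20.2 ± 7.76 CPM in Arid1b +/+ cells (SD, n = 3 each; edgeR adjusted p 0.00664). Its Arid2 call was lost without floxed 2 (0.0771). Nudt4 and Timp2, of the core described above, were also called lower in the Arid1b set. Their log2 fold changes there were -0.90 and -2.43 (edgeR adjusted p 0.00394 and 0.00664). The difference between the sets was not called for either (edgeR adjusted p 0.272 and 0.554). Among genes that rose, Ankrd37 had log2 fold changes of 2.35 in the Arid2 set and 2.56 in the Arid1b set (adjusted p 0.0496 and 0.0167), and Cntnap1 3.49 and 3.27 (0.04 and 0.0226).

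Evpl, which encodes envoplakin, a cell envelope protein of stratified epithelia, went opposite ways in the 2 sets. It was at 0.703, 0.466 and 0.519 CPM in Arid2 fl/fl and 26.8, 21.9 and 13.4 CPM in Arid2 +/+ cells (log2 fold change -5.19, SE 0.61, adjusted p 0.000484). In the other set it averaged 45.5 ± 13.4 CPM in Arid1b fl/fl and 9.09 ± 4.58 CPM in Arid1b +/+ cells (SD, n = 3 each; log2 fold change 2.32, edgeR adjusted p 0.0166). The difference of the contrasts was -7.51 with an SE of 0.80 (adjusted p 0.000216). The lncRNA gene 5031425F14Rik (chromosome 2, 166447451 to 166458770, GRCm38) was at 0.521, 0.274 and 0.61 CPM in Arid2 fl/fl and 5.4, 6.06 and 8.66 CPM in Arid2 +/+ cells (adjusted p 0.000746). In the Arid1b set it averaged 4.47 ± 1.23 CPM in Arid1b fl/fl and 2.23 ± 0.19 CPM in Arid1b +/+ cells (SD, n = 3 each; edgeR adjusted p 0.163). The difference was -4.82 with an SE of 0.63 (adjusted p 0.00252). Both differences were called under all 16 alternatives, of which the threshold of 0.1 could not lose them. The single-library omissions took out libraries of the Arid2 set only, so omission of Arid1b set libraries was not examined. Just short of the threshold stood Hoxa2, Lrp5, a Wnt co-receptor, and the ganglioside synthase gene St8sia1 (differences of -3.06, 1.88 and -6.93, adjusted p 0.0617 each), and Tgm3, an epidermal transglutaminase (-5.33, 0.0664). Tgm3 was itself called lower in the Arid2 set, at 0.208, 0.576 and 0.427 CPM in floxed libraries, against 13.2, 10.4 and 13.2 CPM in control libraries (adjusted p 0.00663, and 0.054 without floxed 1).

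**Figure D5:**
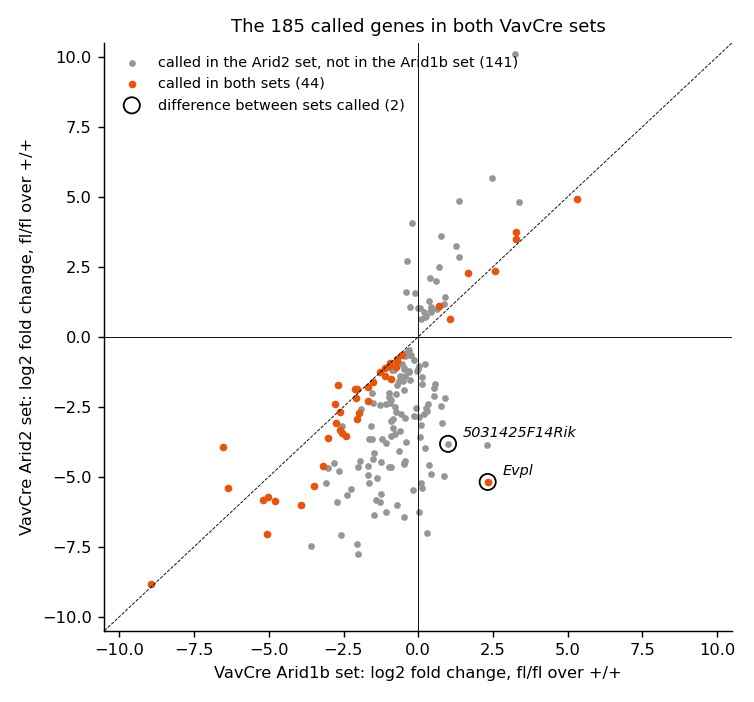
Each point is 1 of the 185 genes called in the VavCre Arid2 set, placed by its log2 fold change (fl/fl over +/+) there, on the vertical axis, and in the VavCre Arid1b set, on the horizontal axis; the dashed line marks equal values. The 44 genes called in both are orange: 43 lie where both values have the same sign and Evpl where the signs are opposite. Circles mark Evpl and 5031425F14Rik, the 2 genes whose difference was called.

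In the MxCre sets, whose titles and cell descriptions name different genes and which are therefore named by title, 0 of the 185 genes were called by edgeR. The lowest adjusted p among the 185 was 0.051 in the set titled A2 and 0.0664 in that titled A1b, where 4 and 1 genes were called in all.

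Around the targeted locus, 26 tested genes, Arid2 included, lay within 2 Mb on chromosome 15, and 0 were called by edgeR, 1 by DESeq2, with 2 at a p under 0.05 before adjustment. Slc38a1, a glutamine transporter gene near Arid2, had the smallest p among them, with a log2 fold change of 0.53 and separated groups (adjusted p 0.107). Its neighbour Slc38a2 was at 0.39 (0.336) and Hdac7, a class II histone deacetylase gene, at 1.14 (0.237). Chromosome 15 as a whole held 13 lower calls and 1 higher among 555 tested genes (2.52%), among them the neighbours Spatc1, Gm10872, Smpd5 and Oplah. That share was the highest of any chromosome, against 1.31% of all tested genes. Chromosome 19 stood close to it at 2.37%, and chromosome 12 was lowest at 0.648%. Median deviations of autosomes within single libraries ran from -0.053 to 0.061 on the log2 scale.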

How the data were processed

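Poly(A) RNA of bone marrow leukaemia cells was sequenced with a directional kit, per the labels' protocols. The submitters' processing notes name STAR and mm10 without versions; no source used here gives the counter or its strand setting, so genes that overlap, or that have near-identical copies, carry uncertain values. The deposited file holds the authors' raw gene counts, with no normalization.

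From these, edgeR 4.0.16 (R 4.3.3, limma 3.58.1) with TMM scaling, filterByExpr (minimum count 10, total 15) and a robust quasi-likelihood fit to all 24 libraries in 8 groups (16 residual degrees of freedom, common biological coefficient of variation 0.4) gave log2 fold changes, floxed over control. P-values were adjusted by Benjamini and Hochberg over 14099 genes, threshold 0.05. Per-library CPM used TMM factors; counting intervals are exact at 95% and cover counting error only, as does the floor of 3 counts.

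Genes were named by rule: Arid2 and Arid1b; among called genes whose groups did not overlap (predicted genes, pseudogenes and antigen receptor segments left out), the 10 of highest CPM per direction and the 8 of largest fold change per direction with at least 5 CPM on average in the higher group and 1 CPM in each of its libraries; the leading members of each gene list; the genes with the smallest p of the difference from the Arid1b contrast; and genes within 2 Mb of Arid2. Other list members given with values, such as Cd34, Camp, Elane and Pbx3, were chosen outside this rule, with their values known. Not every gene named by the rule is described. The comparison, the 33 lists and the tests were chosen with earlier results of these data known.

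Same-numbered libraries were not paired (correlations of deviations 0.055, 0.041 and 0.239). In simulated data for the Arid2 comparison over 14099 genes, the fit recovered 43.8%, 82.9% and 96.1% of genes changed by log2 1, 2 and 3, and 5.88% of its calls were false. The changes were placed only in genes above a minimum mean CPM, and counts were drawn from the fitted negative binomial spread. Recovery among genes of low CPM was therefore not measured, nor were libraries that stand apart from their group simulated. Alternatives were DESeq2 1.42.0, voom with quality weights, RLE scaling, other filters, other sets of libraries, terms for Y-positive libraries or replicate number, and a threshold of 0.1. Each library of the Arid2 set was also left out in turn. Gene positions and promoters are from RefSeq GRCm38.p6.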

Additional observations from a re-analysis of the deposited data

Results flagged for a closer look

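The effect of floxing differed between the Arid2 and Arid1b sets for 2 genes, by a test of the difference of the 2 contrasts in edgeR. For Evpl the difference in log2 fold change, Arid2 minus Arid1b, was -7.51 (SE 0.80, adjusted p 0.000216), with 0.563 CPM on average in Arid2 fl/fl and 20.7 CPM in Arid2 +/+ cells. For 5031425F14Rik it was -4.82 (SE 0.63, adjusted p 0.00252), with 0.468 CPM in Arid2 fl/fl and 6.71 CPM in Arid2 +/+ cells. In the Arid1b set the floxed libraries are Y-negative and the controls Y-positive; with a term for Y-positive libraries the differences were -6.14 (adjusted p 0.0147) and -4.78 (adjusted p 0.0495).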

How the results depend on the processing

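The number of called genes was 185 (35 higher, 150 lower). It was 1095 (373 and 722) by DESeq2, 4679 (2171 and 2508) by voom, 103 (18 and 85) with no filter on low counts, 1030 (432 and 598) from the 6 libraries alone, 1144 (482 and 662) without 3 libraries of other sets, 104 (11 and 93) with Y-positivity as a term and 643 (177 and 466) at a threshold of 0.1; RLE scaling and a filter of 1 CPM gave 176 and 181. Leaving out single libraries gave 15 to 227 calls, 1 to 53 higher and 12 to 174 lower. The difference from the Arid1b set was called for 2 genes, and for 252 by DESeq2, 2484 by voom, 23 from the libraries of the 2 sets alone, 144 without 3 libraries of other sets, 4 with the Y term and 33 at a threshold of 0.1. It was called for 2 to 4 genes when single libraries of the Arid2 set were left out.

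With replicate number as a block 111 genes were called (15 higher and 96 lower, 106 of them among the 185), and the difference was called for 4 genes. The libraries share only a number, and not every library correlated best with its own number.

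Of 45 called genes named by rule, none changed direction in any of the 16 alternatives. Every called gene separated the groups without overlap, so a change of direction was hardly possible and its absence is no support. The call held in 477 of 720 cases and was lost in 243, of which 177 were single-library omissions. The threshold of 0.1, counted among the 16, could lose no call. Among the uncalled genes, 11 changed sign in at least 1 alternative. When single libraries were left out, the log2 fold change ran from -0.405 to 0.174 for Arid2, from -0.019 to 0.127 for Pbrm1, from -0.162 to 1.071 for 2610037D02Rik, from -0.197 to 0.035 for Ano6, from -0.603 to 0.023 for Col2a1, from -0.588 to 0.232 for E330033B04Rik, from -0.079 to 0.149 for Irak4, from -0.513 to 0.330 for Pfkm and from -0.072 to 0.110 for Slc48a1. For Uty it ran from -2.15 to 10.94, the lower value being without the Y-positive floxed 2, where Ddx3y had 0; the fitted values of these Y-linked genes, with 0 to 2 control counts, are no measure of size. With the Y term it was -1.88 for Uty and -0.026 for Irak4, and by voom 0.101 for E330033B04Rik and 0.054 for Pfkm. The cause was not tested. Depth limits the lowest genes most: in 13 called genes the floxed libraries held 3 counts or fewer in total.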
